A study of Mus musculus with 8 samples.

Results

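The miR-199 and miR-214 family comprised 5 of the 1023 mouse microRNAs (miRNAs) on the array: mmu-miR-199a-5p, mmu-miR-199a-3p, mmu-miR-199b-5p, mmu-miR-214-3p and mmu-miR-214-5p, written below without the species prefix. They were matched on the array by name, and every probe carrying one of these names was used, 12 probes of 2645 and 200 spots of 40920. The arrays were hybridised with total RNA from whole kidneys of mice of the outbred CD-1 stock, in one colour (Cy3). The 4 tacrolimus arrays came from animals dosed with 1 mg/kg/d of the drug over 28 days, and the 4 control arrays from animals that received physiological serum instead. Every sample had an RNA input of 0.1 µg and an RNA integrity number of 9, and neither age nor sex is given in the sources used here. Tacrolimus is a calcineurin inhibitor used against transplant rejection whose long-term use can injure the kidney. The study asked whether that injury goes with altered miRNA levels. Whether the replicates are separate mice is not stated, so the spread behind the p-values may be technical.

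A miRNA is a short RNA that pairs with messenger RNAs, mainly through bases 2 to 8 from its 5′ end (the seed), and lowers the protein made from them. The miR-199 and miR-214 miRNAs are made mostly by mesenchymal cells, such as fibroblasts, pericytes and smooth muscle cells, and are known for higher levels in scarred kidney, lung, liver and heart. In mouse kidney, loss or block of miR-214 is known to lessen scarring after ureteral obstruction. miR-199a-5p is known to target caveolin-1, a membrane protein that restrains transforming growth factor beta signalling, and miR-199b-5p is known from mouse heart as a target of calcineurin and NFAT.

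The mature sequences show which members can share targets, and are given 5′ to 3′ with the seed in capitals (RefSeq, assembly GRCm38.p6). A mature sequence was matched for 4 of the 5 members.
miR-199a-5p: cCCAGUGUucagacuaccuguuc
miR-199a-3p: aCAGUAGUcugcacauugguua
miR-214-3p: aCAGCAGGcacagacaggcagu
miR-214-5p: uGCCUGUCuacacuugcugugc
The 4 seeds printed here all differ from one another. miR-199b-5p, the member without a matched mature sequence, is not among them. Its 22-base probe pairs with a stretch that contains CCAGUGU, the letters of the miR-199a-5p seed, and the Mir199b hairpin holds the same letters. Shared targets are therefore possible for that pair and were not tested. miR-199a-5p and miR-199a-3p are the 2 arms of 1 hairpin, which the genome encodes more than once. In Mir199a-2 they lie at chr1:162217844-162217866 and chr1:162217883-162217904 on the plus strand, and in Mir199a-1 at chr9:21496537-21496559 and chr9:21496498-21496519 on the minus strand. miR-214-3p and miR-214-5p lie at chr1:162223438-162223459 and chr1:162223397-162223418, plus strand, in Mir214. Mir199a-2 and Mir214 are 5444 bases apart and both lie inside Dnm3os, a long noncoding RNA transcribed antisense within the dynamin gene Dnm3, so 1 host transcript can yield both. Mir199a-1 lies inside Dnm2 and Mir199b inside Dnm1, the other dynamin genes.

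The hairpins of the pair that shares a host transcript are shown with both mature arms in capitals, 5′ arm first, because the arms of 1 hairpin start out in equal number and yet 1 arm of Mir214 was measured and the other was not (Mir199a-2 at chr1:162217814-162217923 and Mir214 at chr1:162223368-162223477, plus strand, 110 bases each).
Mir199a-2: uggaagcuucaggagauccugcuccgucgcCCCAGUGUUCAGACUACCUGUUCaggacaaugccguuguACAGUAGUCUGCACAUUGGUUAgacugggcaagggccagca
Mir214: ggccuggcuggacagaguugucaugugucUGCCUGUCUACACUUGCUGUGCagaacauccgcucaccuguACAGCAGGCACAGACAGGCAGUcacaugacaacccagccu

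The probes decide what each signal can mean, and the brighter probe of 3 members is given 5′ to 3′ as the array files hold it.
miR-199a-5p probe: gaacaggtagtctGaacac
miR-199b-5p probe: gaacaggtagtctAaacactgg
miR-214-3p probe: actgcctgtctgt
Over the 19 bases they share, the miR-199a-5p and miR-199b-5p probes differ at 1 base, in capitals, G14A counted from the 5′ end of the probe (miR-199a-5p probe first). Signal of one may therefore include the other, and the 2 are uncertain as separate measurements. The 13-base miR-214-3p probe pairs with bases 10 to 22 of the miRNA and none of its seed. Both miR-199a-3p probes (19 and 20 bases) are also fully complementary to miR-199b-3p, whose mature sequence at chr2:32318524-32318545 in Mir199b is identical to miR-199a-3p and which has no name of its own on the array. The signal named miR-199a-3p is thus the sum over Mir199a-1, Mir199a-2 and Mir199b.

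Spot signals were averaged per probe, divided on each array by the 75th percentile over 252 probes (those that all 8 arrays detected), and put on a log2 scale, on which 0 is that percentile and each step of 1 is a factor of 2. A probe counted as detected when 0.5 or more of its spots kept on that array exceeded background clearly, by the scanner software's flag. Each miRNA was read from its brightest probe and entered the test when detected on 4 or more of the 8 arrays, which held for 194 miRNAs and for 4 of the 5 members. Between 9.60% and 15.2% of probes were detected per array, and correlations between arrays were 0.987 to 0.997. Tacrolimus 4 had the widest spread of negative control spots (SD 20.01 intensity units), followed by control 1 (10.5) and control 3 (9.69). The tacrolimus arrays filled 1 row of the slide and the control arrays the other, so row and treatment cannot be told apart. The label of kidney was checked against the tubule miRNA miR-192-5p, detected on 4 tacrolimus and 4 control arrays, while the liver miRNA miR-122-5p was detected on 0.

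The 4 measured members were higher in tacrolimus kidneys than in control kidneys, by 1.39-fold to 1.62-fold, and for each the lowest tacrolimus array lay above the highest control array, as it did for 16 of all 194 tested miRNAs (8.25%). miR-214-3p, the arm of Mir214 known for a role in kidney scarring, stood at -4.15, -3.58, -4.16 and -4.04 on tacrolimus arrays 1 to 4, against -4.78, -4.63, -4.48 and -4.79 on control arrays 1 to 4. Tacrolimus 2 was the highest array and the groups were separated by 0.33, less than the range of 0.58 within the tacrolimus group. The means were -3.98 ± 0.27 in tacrolimus and -4.67 ± 0.15 in control (SD, n = 4 each), a difference of 0.69 (SE 0.137, 95% interval 0.38 to 1.00) or 1.62-fold. With normexp background correction, run with an added offset of 50 intensity units, the difference was 0.30. It was then the smallest of the 4 members (adjusted p = 0.249, limma), and the groups overlapped. The unscaled control signals of miR-214-3p were 62.7 to 91.9 units without that offset. In RNA from whole tissue, more cells that make a miRNA and more of it per cell cannot be told apart.

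**Figure D1:**
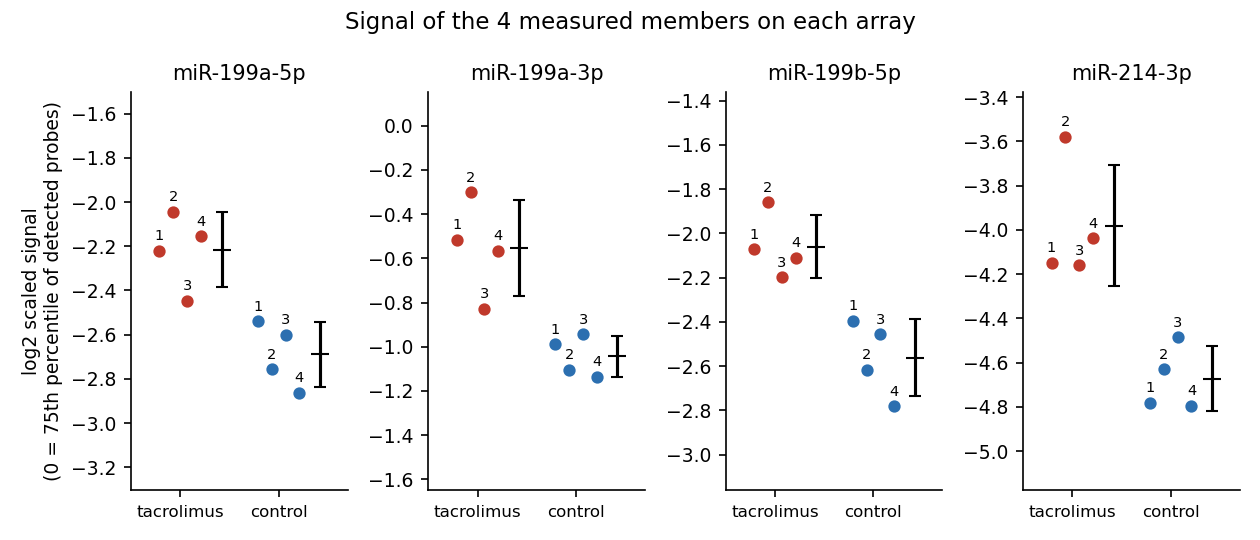
Log2 scaled signal of miR-199a-5p, miR-199a-3p, miR-199b-5p and miR-214-3p on each array, where 0 is the 75th percentile of detected probes. Points are arrays with their replicate number, tacrolimus left and control right, and bars are the mean ± SD (n = 4 each); panels span equal ranges at different heights, and in each panel all 4 tacrolimus points lie above all 4 control points.

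miR-199a-5p, the 5′ arm, stood at -2.22, -2.04, -2.45 and -2.15 on tacrolimus arrays 1 to 4, against -2.54, -2.75, -2.60 and -2.86 on control arrays 1 to 4. The lowest tacrolimus array and the highest control array were 0.09 apart, the narrowest separation of the 4 members. The means were -2.22 ± 0.17 in tacrolimus and -2.69 ± 0.15 in control (SD, n = 4 each), a difference of 0.47 (SE 0.106, 95% interval 0.24 to 0.71) or 1.39-fold. miR-199a-3p, the 3′ arm of the same hairpins, stood at -0.52, -0.30, -0.83 and -0.57 in tacrolimus, against -0.99, -1.10, -0.94 and -1.14 in control. Its control arrays were the tightest of the 4 members and its tacrolimus arrays ran over a wider range. The means were -0.55 ± 0.22 in tacrolimus and -1.04 ± 0.09 in control, a difference of 0.49 (SE 0.109, 95% interval 0.24 to 0.74) or 1.40-fold.

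miR-199b-5p, the 5′ arm of Mir199b, stood at -2.07, -1.86, -2.20 and -2.11 on tacrolimus arrays 1 to 4, against -2.40, -2.62, -2.46 and -2.78 on control arrays 1 to 4. The groups did not overlap and were 0.20 apart. The means were -2.06 ± 0.14 in tacrolimus and -2.56 ± 0.17 in control (SD, n = 4 each), a difference of 0.50 (SE 0.106, 95% interval 0.26 to 0.74) or 1.42-fold.

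miR-214-5p, the other arm of Mir214, was detected on 0 tacrolimus and 0 control arrays by any of its 4 probes. Their mean processed signals ran from -9.31 to 30.7 intensity units on tacrolimus arrays and from -6.45 to 14.4 on control arrays, all at or below the floor set for signals that cannot be told from background. The top of each range came from the 17-base probe, on tacrolimus 4 and on control 1, the arrays with the widest spread of negative control spots. Its level has only a bound in both groups, and no fold was computed.

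In the limma fit over all 194 tested miRNAs (two-sided, Benjamini-Hochberg adjustment), all 4 measured members passed the threshold of 0.05, each at an adjusted p of 0.0476. Over all tested miRNAs 6 passed, or 3.09%, all of them higher in tacrolimus, and the other 2 were miR-574-5p and miR-1949, also at 0.0476. Unadjusted p-values were 0.000639 for miR-214-3p, 0.00099 for miR-199b-5p, 0.00143 for miR-199a-3p and 0.00146 for miR-199a-5p, ranks 1, 2, 4 and 5 of 194. The 4 tacrolimus values all exceeded the 4 control values for 4 of 4 measured members and for 16 of the 194 tested miRNAs (8.25%). Counting both directions, 20 of 194 had groups that did not overlap (10.3%). The median difference of the 4 members was 0.50, against 0.04 over all tested miRNAs. The members were chosen with earlier results of these data known, so these comparisons with all tested miRNAs are descriptions. Each adjusted p lay just under the threshold, and of 22 alternative settings 4 called all 4 members, 1 called 1 and 17 called 0. Of the 17, the total gene signal and the authors' value table hold the same values and give the same result. Leaving out 1 array gave 4 members called without tacrolimus 3, 1 without tacrolimus 2 (miR-214-3p), and 0 without tacrolimus 1, tacrolimus 4 or any 1 of the 4 control arrays. Over the 22 alternatives the groups did not overlap in 19 for miR-199a-5p and in 20 for each of the other members. Many of these alternatives could hardly give an overlap. The filter, estimation and block settings keep the members' values, and leaving out arrays changes the remaining values mainly by rescaling. All 4 members overlapped with the 75th percentile of all probes, the 3 miR-199 members with no scaling, miR-199a-5p with the mean of probes and miR-214-3p with normexp. With 9.60% to 15.2% of probes detected per array, the 75th percentile of all probes falls among undetected ones. The SE under that scaling was 0.396 for each member. Dropping an array can hardly make separated groups overlap, and in the 8 fits without 1 array the groups of all 4 members did not. The differences in these fits were 0.34 to 0.55 for miR-199a-5p, 0.38 to 0.58 for miR-199a-3p, 0.41 to 0.56 for miR-199b-5p and 0.56 to 0.75 for miR-214-3p.

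**Figure D2:**
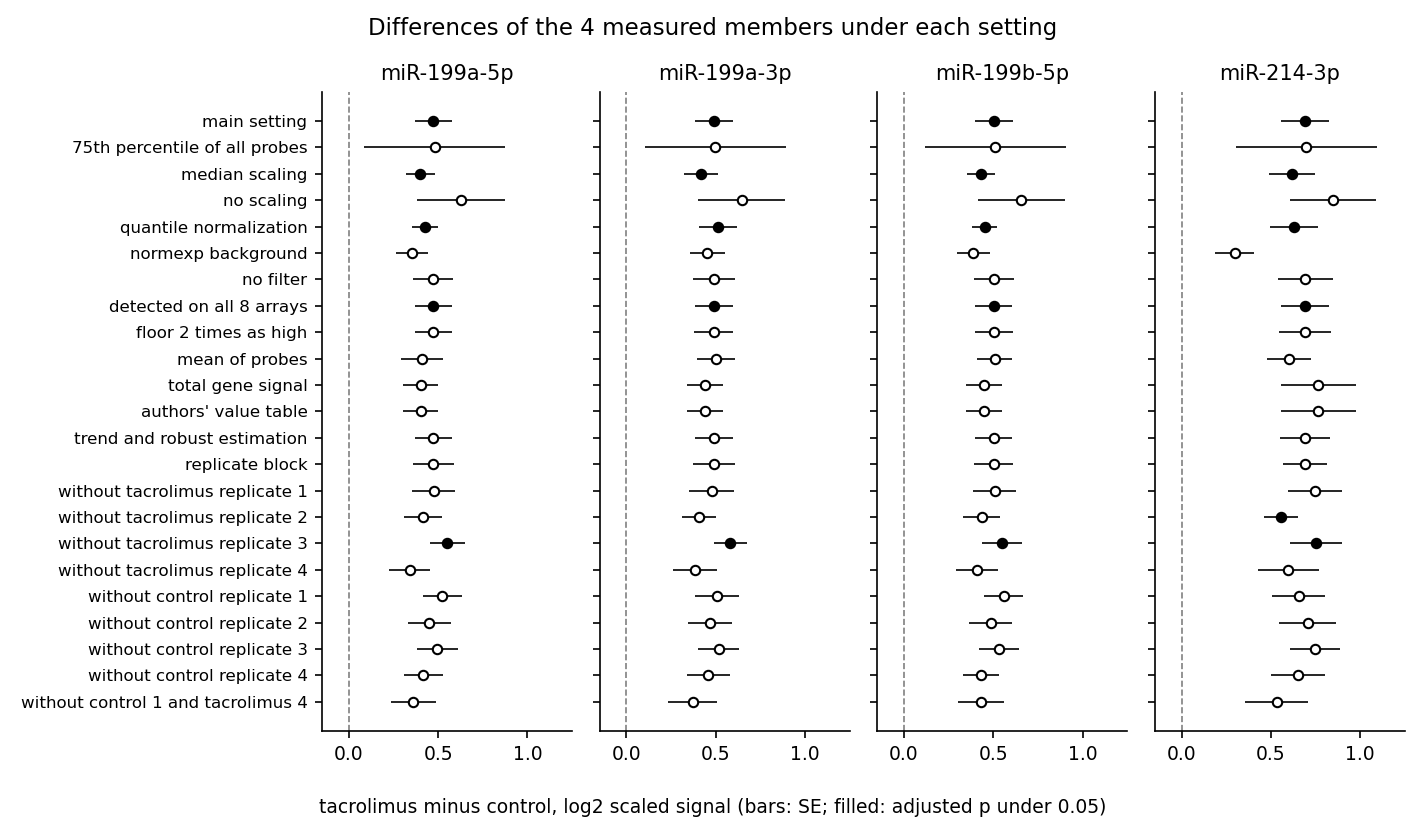
Tacrolimus minus control difference in log2 scaled signal (x axis) for each measured member (panels) under the main setting (top) and 22 alternatives (rows). Points are differences, bars are SE, and filled points have an adjusted p under 0.05; every point lies above 0, and filled points are few.

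The slide held a tacrolimus and a control array in each of its 4 columns. Within columns the tacrolimus minus control difference was 0.15 to 0.71 for miR-199a-5p, 0.12 to 0.80 for miR-199a-3p, 0.26 to 0.76 for miR-199b-5p and 0.33 to 1.05 for miR-214-3p. For all 4 the smallest came from column 3 and the largest from column 2. Column and replicate number coincide. In the limma fit that blocks on them, 0 of the 4 members passed, with adjusted p-values of 0.0607 to 0.0977.

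Each measured member had a dimmer probe on the array, which gives a second reading of the same RNA samples with shorter pairing. For miR-199a-3p and miR-199b-5p both probes gave nearly the same difference, 0.49 and 0.51 for the 20-base and 19-base probes of miR-199a-3p and 0.50 and 0.51 for the 22-base and 21-base probes of miR-199b-5p. For miR-199a-5p the 18-base probe differed by 0.35 (95% interval 0.04 to 0.66), against 0.47 for the 19-base probe. It was detected on 3 tacrolimus and 2 control arrays, and its groups overlapped. The 12-base probe of miR-214-3p read -5.59, -5.05, -5.57 and -5.46 on tacrolimus arrays 1 to 4, 3 of them detected, against -5.96, -5.96, -5.83 and -5.96 on control arrays 1 to 4, 0 of them detected and 3 at the floor. In control it was not well above background on any array, so control has only a bound. That bound was, per array, the higher of the lowest detected signal and the probe's own, and the tacrolimus mean was 1.11-fold above it. The tacrolimus mean includes tacrolimus 4 at its measured value, although the probe was not detected there, so 1.11-fold is not a strict lower bound. The 12-base probe also pairs with miR-7018-5p at all but 1 base. This probe did not reach the detection filter and was not tested.

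Of the 12 probes of the family, 7 entered a fit over the 357 probes detected on at least 4 arrays. In that fit 0 of 357 probes passed (0%), with 38 (10.6%) higher at an unadjusted p under 0.05. The adjusted p was 0.0611 for 6 of the family's probes and 0.276 for the 18-base miR-199a-5p probe (limma). The tacrolimus values all exceeded the control values for 6 of the 7, and for 24 of all 357 (6.72%).

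**Figure D3:**
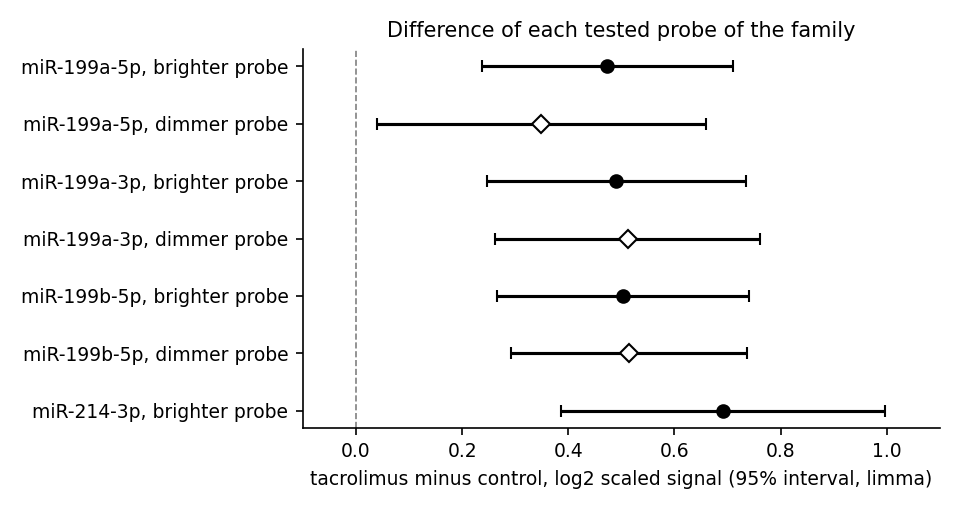
Tacrolimus minus control difference in log2 scaled signal for the 7 tested probes of the family, with 95% limma intervals. Filled circles are the brighter and open diamonds the dimmer probe of a miRNA; all intervals lie above 0, and the dimmer miR-199a-5p probe comes closest to it.

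Signals were high above background for the miR-199 members and lower for miR-214-3p. Divided by the SD of the negative control spots of the same array, the brighter probe stood at 74.7 to 376 for miR-199a-3p, 25.6 to 128 for miR-199b-5p, 24.4 to 113 for miR-199a-5p and 6.60 to 38.9 for miR-214-3p. For miR-214-3p the low values came from control 3 (6.60) and tacrolimus 4 (6.74), so its reading there was the least precise. These quotients describe precision and not the relative amounts of the members. Replicate spots of 1 probe on 1 array varied by a coefficient of variation of 3.36% to 8.30% for the miR-199 members and of 5.94% to 14.7% for miR-214-3p, over 17 to 20 kept spots. Before scaling, miR-214-3p had 92.3 to 190 intensity units in tacrolimus and 62.7 to 91.9 in control, groups that did not overlap. The unscaled miR-199 signals did overlap, with miR-199a-5p at 302 to 551 in tacrolimus and 236 to 435 in control. The number of arrays limits the precision of all these differences.

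**Figure D4:**
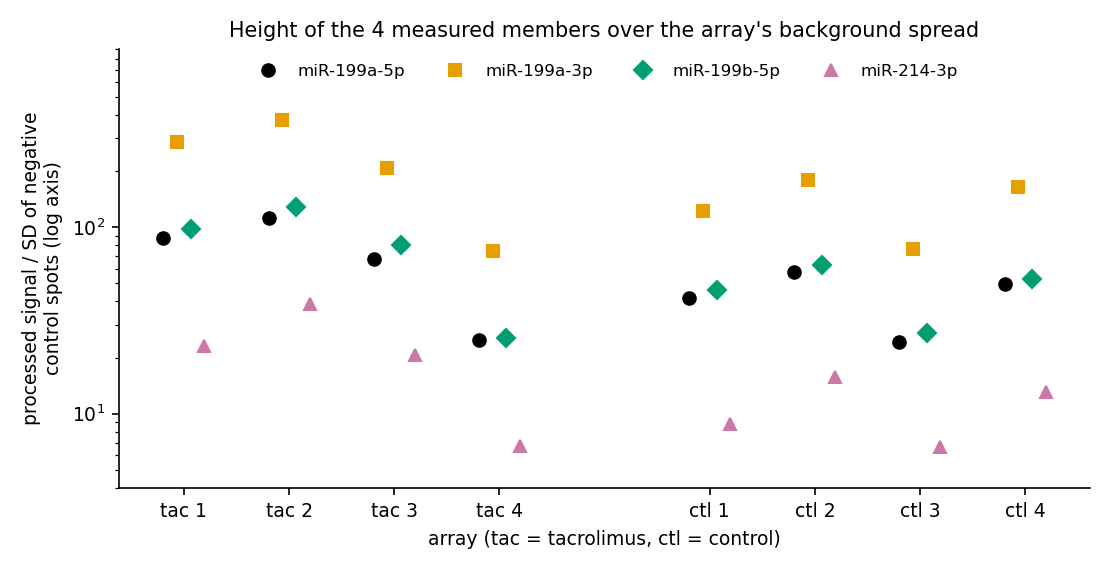
Processed signal of the brighter probe of each measured member divided by the SD of the negative control spots of the same array (log axis), with tacrolimus arrays left and control arrays right. All 4 members were lowest, or next to lowest, on tacrolimus 4 and control 3.

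Whether members moved by different amounts was asked with log2 ratios within 1 array, which need no scaling between arrays. The ratio of miR-214-3p over miR-199a-3p, miRNAs that Dnm3os can yield together, was -3.63, -3.28, -3.33 and -3.47 on tacrolimus arrays 1 to 4, against -3.79, -3.52, -3.54 and -3.66 on control arrays. The groups overlapped, since tacrolimus 1 lay below control 2 and control 3. The means were -3.43 ± 0.16 in tacrolimus and -3.63 ± 0.12 in control (SD, n = 4 each), a difference of 0.20 (exact two-sided permutation test, p = 0.114, adjusted over the 3 pairs p = 0.343). With normexp background correction and its added offset of 50 intensity units, this difference turned to -0.15 (exact permutation p = 0.286). The ratio of the arms of miR-199a, 5p over 3p, averaged -1.66 ± 0.07 in tacrolimus and -1.65 ± 0.07 in control, a difference of -0.02 (exact permutation p = 0.771, adjusted p = 0.771). Its 3p signal includes miR-199b-3p, so it is not purely a ratio of miR-199a arms. The ratio of miR-199a-5p over miR-199b-5p averaged -0.16 ± 0.09 in tacrolimus and -0.13 ± 0.03 in control, a difference of -0.03 (exact permutation p = 0.429, adjusted p = 0.643). These 2 probes may share signal, so that ratio could stay alike between groups even if the 2 miRNAs moved by different amounts. None of the 3 ratios differed between groups beyond the spread of the arrays, and 4 arrays against 4 allow no p below 0.0286. Leaving out 1 array moved 2 of them to an unadjusted exact permutation p of 0.0286, the smallest that 3 against 4 allow: miR-214-3p over miR-199a-3p without tacrolimus 1 (difference 0.27) and miR-199a-5p over miR-199b-5p without tacrolimus 4 (difference -0.067). The ratio of the arms of miR-214 could not be formed.

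The order of the arrays within groups was partly shared by the 4 measured members. Tacrolimus 2 was the highest and tacrolimus 3 the lowest tacrolimus array for all 4, and control 4 was the lowest control array for all 4. The highest control array was control 1 for miR-199a-5p and miR-199b-5p and control 3 for miR-199a-3p and miR-214-3p. On control 1 miR-214-3p parted from the miR-199 members, lying close to control 4. With each miRNA's own mean over the 8 arrays subtracted, the root mean square difference over the 8 arrays was 0.058 between miR-199a-5p and miR-199b-5p, 0.063 between miR-199a-5p and miR-199a-3p, and 0.16 to 0.19 between miR-214-3p and each of the others. With the group means subtracted instead, it was 0.056 and 0.063 for the first 2 pairs and 0.12 to 0.15 for miR-214-3p. Ranks were taken with own means subtracted, not group means, so they include the difference between treatments. Among all tested miRNAs, miR-214-3p ranked 14th closest to miR-199a-5p, 8th to miR-199a-3p and 9th to miR-199b-5p. Seen from miR-214-3p, miR-199a-3p ranked 1st closest of all tested miRNAs, miR-199b-5p 2nd and miR-199a-5p 4th. These points share arrays and scaling, and the first pair may share signal.

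**Figure D5:**
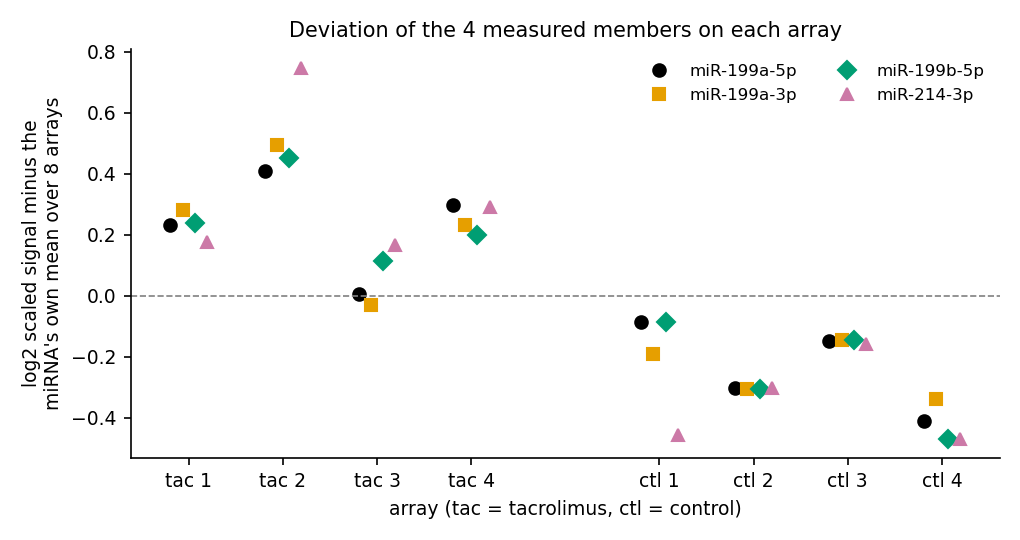
Log2 scaled signal of each measured member minus its own mean over the 8 arrays, for tacrolimus (tac) and control (ctl) arrays 1 to 4. All 4 members peak on tac 2 and are lowest on ctl 4, and miR-214-3p stands apart from the others on tac 2 and ctl 1.

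By the same measure, the tested non-members closest to each member were few and recurrent. miR-574-5p, miR-21a-5p and let-7i-5p were closest to miR-199a-5p (0.052, 0.10 and 0.14, against a median of 0.28 over all tested non-members). miR-574-5p, miR-21a-5p and miR-1949 were closest to miR-199a-3p (0.090, 0.097 and 0.13) and to miR-199b-5p (0.050, 0.078 and 0.12). The same 3 were closest to miR-214-3p, at 0.18 for miR-1949, 0.19 for miR-21a-5p and 0.20 for miR-574-5p, against a median of 0.40. This likeness includes the difference between treatments. miR-574-5p averaged -5.12 ± 0.13 in tacrolimus and -5.62 ± 0.20 in control, was detected on 3 arrays of each group and rose by 0.50 (SE 0.111). miR-1949 averaged -4.01 ± 0.25 in tacrolimus and -4.56 ± 0.12 in control and rose by 0.55 (SE 0.123). let-7i-5p, of the let-7 family, differed by 0.26 (SE 0.095, limma adjusted p = 0.244).

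The array carried 1 further named miRNA with the seed of a member. miR-761 shares its seed with miR-214-3p (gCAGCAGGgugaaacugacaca on chromosome 4, seed in capitals). All 4 of its probes were detected on 0 tacrolimus and 0 control arrays, so no level was measured for it.

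Other miRNAs linked to fibrosis were read from lists of names. Of 11 described as promoting it outside the family, 6 were tested and 0 passed the threshold, with 5 of 6 differences above 0 and a median of 0.17. miR-21a-5p, raised in many injured tissues and a known driver of kidney scarring, averaged 3.24 ± 0.20 in tacrolimus and 2.79 ± 0.19 in control, a difference of 0.45 (SE 0.126, limma adjusted p = 0.104). Its groups did not overlap, and its difference was close in size to those of the miR-199 members. miR-150-5p differed by 0.25 (SE 0.169, adjusted p = 0.535). Of 12 described as restraining fibrosis, 10 were tested, 0 passed, 5 differences were above 0 and the median was -0.01. miR-141-3p and miR-200a-3p, of the miR-200 family that guards the epithelial state, had the smallest p-values of that list, with differences of 0.10 (SE 0.099) and 0.08 (SE 0.080). The members of the miR-29 family, which represses collagen genes, differed by -0.05 (miR-29a-3p), -0.08 (miR-29b-3p) and -0.04 (miR-29c-3p). These were picked from the list after their values were seen.

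Markers of the cells a whole kidney holds were read beside the family. Of 8 stromal and vascular miRNAs, all 8 were tested, 0 passed, 5 differences were above 0 and the median was 0.02. Their summed scaled level was 6.94 to 7.30 in tacrolimus and 6.52 to 7.16 in control. Such sums, here and below, add signals before log2, so the brightest miRNAs weigh most. In this list those were miR-126a-3p and miR-125b-5p, with log2 means of 1.86 and 1.30 in tacrolimus. In that list miR-100-5p differed by 0.18 (SE 0.077, unadjusted p = 0.0453, adjusted p = 0.301) and miR-125b-5p by 0.11 (SE 0.068). The smooth muscle miRNAs miR-143-3p and miR-145a-5p differed by 0.03 (95% interval -0.13 to 0.19) and -0.08 (95% interval -0.28 to 0.12), and were named after their values were seen. The part of stromal RNA in the family's difference was not tested.

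Leukocyte miRNAs lay higher in tacrolimus, as the family did, but did not pass the test. All 8 listed were tested, 0 passed, 8 of 8 differences were above 0, 4 had an unadjusted p under 0.05 and the median was 0.45. Over all tested miRNAs 115 of 194 differences were above 0 (59.3%), and 21 (10.8%) were higher at an unadjusted p under 0.05. The summed scaled level of the list was 0.941 to 1.30 in tacrolimus and 0.672 to 0.962 in control. miR-223-3p, of neutrophils and monocytes, differed by 0.61 (SE 0.161, adjusted p = 0.0911), and miR-142a-3p, of all blood-forming lineages, by 0.64 (SE 0.213, adjusted p = 0.191). miR-150-5p and miR-155-5p stand in this list and in the fibrosis-promoting one. The part of leukocyte RNA in the family's difference was not tested.

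Tubule miRNAs, 4 of 5 tested, had 0 past the threshold, 4 differences above 0 and a median of 0.15, with a summed level of 4.66 to 5.47 in tacrolimus and 4.47 to 4.88 in control. miR-204-5p differed by 0.34 (SE 0.142) and miR-192-3p by 0.16 (SE 0.082), and miR-215-5p was not tested. Erythrocyte miRNAs lay the other way: 3 of 4 were tested, 0 passed, all 3 were lower in tacrolimus at an unadjusted p under 0.05, and the median was -0.67. Their summed level was 1.88 to 2.50 in tacrolimus and 2.09 to 5.81 in control, with miR-451a and miR-486a-5p at -0.67 each (SE 0.272 and 0.270). Over all 194 tested miRNAs, 30 had an unadjusted limma p under 0.05 in either direction, and 21 of these were higher in tacrolimus. Striated muscle miRNAs were not tested: miR-1a-3p was detected on 2 tacrolimus and 0 control arrays, and miR-133a-3p on 0. The part of red cell and tubule RNA in the family's difference was not tested.

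miR-199a also comes from Mir199a-1, which lies outside Dnm3os, and Dnm3os RNA was not measured here. The promoter of Dnm3os is shown because that transcript hosts Mir199a-2 and Mir214, whose measured miRNAs were higher in tacrolimus in the main setting. It covers 250 bases before to 50 after the annotated start, at chr1:162217373-162217672 on the plus strand of GRCm38.p6 (RefSeq), with 3 E-boxes of 6 bases and a CArG box of 10 bases in capitals.
Dnm3os promoter: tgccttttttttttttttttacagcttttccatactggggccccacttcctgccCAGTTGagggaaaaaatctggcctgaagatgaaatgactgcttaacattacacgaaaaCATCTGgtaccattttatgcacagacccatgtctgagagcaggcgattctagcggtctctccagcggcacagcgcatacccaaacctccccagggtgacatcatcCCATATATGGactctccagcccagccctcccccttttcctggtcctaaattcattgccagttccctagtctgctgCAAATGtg
The E-box, CANNTG, is bound by basic helix-loop-helix factors such as Twist1, which is known to drive Dnm3os in mouse. It occurred 3 times, counting both strands, and 72.3% of 32851 mouse promoters of the same length hold it. GGAAA, the core letters bound by NFAT, the factor that calcineurin activates, also occurred 3 times, and 61.3% of promoters hold it. TGANTCA, the AP-1 site, occurred 0 times and is held by 7.81% of promoters. The CArG box, bound by serum response factor, which drives smooth muscle and myofibroblast genes, occurred 1 time and is held by 1.63% of promoters. It was searched for after the sequence was seen. The matches of the different motifs did not overlap. They describe letters only, and binding was not measured.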

How the data were processed

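One-colour Agilent mouse miRNA arrays of kidney RNA were used, 4 tacrolimus and 4 control. The authors deposited the scanner output, spot intensities on a linear scale made per the file headers with Agilent's Feature Extraction 10.7.3.1, with background subtracted and no scaling between arrays. Of the entries in the authors' deposited value table, 100% matched the total gene signal of that software (tolerance 1e-06), a linear intensity with undetected miRNAs at 0.1, the median of every column. The submitters' processing notes name limma without a version. How miRNA was labelled is uncertain, since the kit named in the labels is one for messenger RNA.

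With R 4.3.3, limma 3.58.1 and data.table (version 1.17.8), outlier spots (7.36% to 11.2% per array) and control spots were dropped and 0 spots were saturated. Kept spots were averaged per probe and scaled as described above. After scaling, signals under -5.96, the arrays' median for the dimmest detected probe, were raised to it on the log2 scale. Groups were compared with lmFit and eBayes, with no covariate. Replicate numbers were not used to pair the arrays in the main fit. Correlations of same-numbered deviations were 0.109, 0.140, 0.112 and 0.0946, all above 0 but not all above the set minimum of 0.1. That does not exclude a pairing, since the numbers coincide with the slide columns, and a fit blocked on them is among the alternatives. Scripts were tested on simulated data. The alternatives covered scaling, background correction, filter, floor, probe summary, estimation, the replicate number as a block and left-out arrays.

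Members and lists were chosen with earlier results of these data known, so list counts are descriptions. The text names the 5 members, the miRNA on the array that shares a seed with one, for each tested member the 3 nearest other tested miRNAs, and of each list the members past the threshold or else the 2 of smallest p. Other list members that appear were named after their values were seen. Mature sequences were matched for 835 of 1023 array names, and coordinates are those of RefSeq on GRCm38.p6.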

Additional observations from a re-analysis of the deposited data

Results flagged for a closer look

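Values of 22 groups of 4 arrays were examined for an array far from the others, which chance gives in about 1 group in 20, and 2 were found. On the 12-base miR-214-3p probe, control 3 stood at -5.83, while the other 3 control arrays were at the floor of -5.96. With 3 values raised to 1 floor, any other value would stand out, so the chance rate does not apply to it. In the within-array ratio of miR-199a-5p over miR-199b-5p, control 4 stood at -0.081, while the other control arrays lay between -0.144 and -0.138. Neither value belongs to a difference that passed a test.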

How the results depend on the processing

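The differences of the 4 measured members were above 0 in 22 of 22 alternatives: 0.34 to 0.63 for miR-199a-5p, 0.37 to 0.65 for miR-199a-3p, 0.39 to 0.66 for miR-199b-5p and 0.30 to 0.85 for miR-214-3p, with adjusted p-values from 0.0297 (0.0314 for miR-199a-3p and miR-214-3p) to 0.995. Against 6 miRNAs and 4 members past the threshold, 0 miRNAs and 0 members passed with the 75th percentile of all probes (the only alternative in which the 4 members were not under an unadjusted 0.05; 2 miRNAs were), no scaling (14 miRNAs at an unadjusted p under 0.05), a floor 2 times as high (27), no filter (28), probes averaged (31), the total gene signal or the authors' value table (23 each), trend and robust estimation (31, lowest adjusted p 0.0524) and without control 1 and tacrolimus 4 (37), all by limma. Normexp with an added offset of 50 intensity units gave 1 miRNA and 0 members, with miR-214-3p at 0.30. Median scaling gave 8 and quantile normalization 7 miRNAs, with 4 members each. No scaling shifted the median of all tested miRNAs to 0.19, and the members stood at 0.63 to 0.85. Leaving out 1 array gave 0 to 7 miRNAs and 0 to 4 members past the threshold. With the replicate number as a block, 0 miRNAs and 0 members passed (lowest adjusted p 0.0607 and 31 under an unadjusted 0.05), and 1 of 4 tacrolimus arrays correlated best with its own number. The miR-214-3p over miR-199a-3p ratio turned to -0.15 with normexp and was 0.15 to 0.27 with 1 array left out. With 1 array left out, miR-199a-5p over miR-199a-3p ran from -0.044 to 0.015, turning to 0.0092 without tacrolimus 2 and to 0.015 without control 1. miR-199a-5p over miR-199b-5p ran from -0.067 to 0.0013, turning to 0.0013 without tacrolimus 3. The causes were not tested. Signal over background was lowest for miR-214-5p, the 12-base miR-214-3p probe and the 18-base miR-199a-5p probe.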
